A study of Mus musculus with 8 samples.

Results

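The genes of sterol and fatty acid synthesis were followed in cultured embryonic mouse lungs. The set was chosen by name, from the steps that carry acetyl units to cholesterol and to unsaturated fatty acids, and holds 31 genes. The choice was made with earlier results of these data known, so its counts beside all genes are descriptions and not tests. A gene was found through the spots annotated to its symbol, accession or current synonym, and the spot with the highest mean over the 8 arrays stood for it. In this way 30 of the 31 genes had a value among the 24304 named genes of the array, with 63 spots in all, and Acat2, a cytosolic thiolase, was not analysed here. The 30 genes comprised 17 enzymes of sterol synthesis, 9 enzymes of fatty acid synthesis and 4 genes of regulation and transport.

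The lungs were taken from C57bl/6J embryos at E12.5, when the airways are branching, and were kept as explants on filters in a serum-containing medium. They received IQ1 at 10 µM, a small molecule that lowers the interaction of β-catenin with its coactivator EP300, or vehicle. The labels give PBS as vehicle, whereas the methods describe IQ1 dissolved in DMSO and controls given the vehicle, PBS or DMSO. Where the solvents differed, solvent and IQ1 cannot be told apart. The labels list 3 control and 3 IQ1 arrays after 9 h of culture, and 1 control and 1 IQ1 array after 24 h. The 24 h arrays came from pooled lungs of another experiment. Descriptions of the IQ1 samples also mention global inhibition of FGFR2b, and samples were grouped here by treatment and time. No genetic alteration is given for any group. RNA came from the whole organ, so that fewer cells of a type and less RNA per cell cannot be told apart in any value. Nothing states that the 9 h replicates came from separate litters, and the tests measure the spread between these arrays.

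In sterol synthesis, acetyl units are joined to mevalonate, mevalonate is turned into isoprene units, these are condensed to squalene, and squalene is closed to lanosterol and trimmed to cholesterol. In fatty acid synthesis, citrate is split to acetyl-CoA, which is carboxylated, built into palmitate, and then elongated and desaturated. Both routes are driven by the SREBP transcription factors, encoded by Srebf1 and Srebf2, which are held in the endoplasmic reticulum by SCAP and the INSIG proteins while sterol is plentiful and are released when it is scarce. In the fetal lung these lipids serve growing membranes and, later, surfactant.

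Control replicate 2 at 9 h stood apart. Across spots it correlated with the remaining 7 arrays at 0.583 to 0.602 (Pearson's r), while those 7 arrays correlated at 0.953 to 0.982 with one another, and its limma array weight was 0.0319 against 0.759 to 4.16 for the rest of the 9 h arrays. The study describes its 9 h comparison with fewer controls than the labels list and does not name the one left out. Fits are therefore given with all arrays (6 at 9 h, 8 with the 24 h arrays) and without it (5 and 7 arrays). Markers of lung epithelium, mesenchyme and endothelium lay above the lower quartile of 4.34 on all 7 other arrays for 7 of 8 genes each. Macrophage markers did so for 8 of 8, and markers of adipocytes and liver for 5 of 8. Mean levels over the 8 arrays exceeded that of the median gene for 7 of 8 epithelial, mesenchymal and macrophage markers each. The same held for 3 of 8 endothelial and 3 of 8 adipocyte and liver markers. On control replicate 2 Adipoq, an adipocyte marker, was at 12.5, against 4.89 or less on every other array.

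All levels below are quantile-normalised log2 intensities, and differences are on the log2 scale. Of the 30 genes, 29 lay above the lower quartile of all spots on all 7 arrays. The exception was Scd1, which reached 4.04 in the IQ1 lungs at 24 h. The share of all genes above this bar was not counted, and it is low for genes kept at their brightest spot. Mean levels over the 8 arrays exceeded that of the median gene for 29 of the 30, all but Tm7sf2, beside 12152 of all 24304 genes. Of 21 genes with several spots, 33 further spots were available as a check, up to 7 spots for a gene (Acaca). Spots of the same gene are not independent, and the share over all further spots of the array was not counted.

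**Figure D1:**
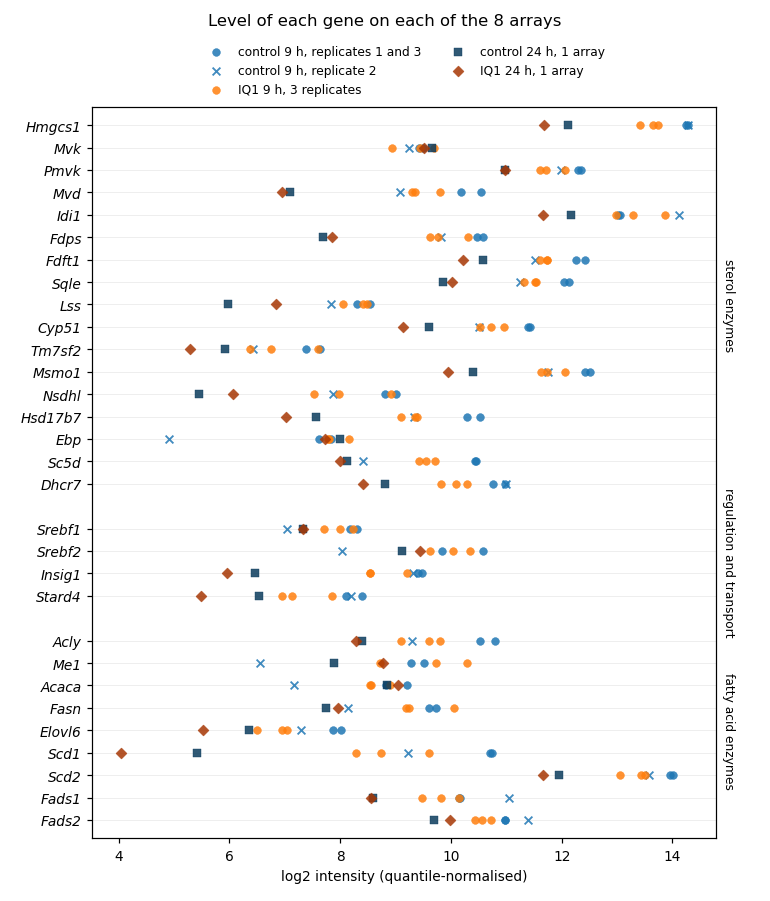
Log2 intensity of the 30 genes on each of the 8 arrays, with points for single arrays and genes in pathway order within the 3 groups. The 24 h arrays (squares and diamonds) lie to the left for most genes, with Scd1 at 5.42 and 4.04, and control replicate 2 (crosses) departs from the other controls for genes such as Ebp and Me1.

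Control explants after 24 h were compared with control explants after 9 h. Most of the synthesis genes had lower levels at 24 h. Without control replicate 2 the median difference was −2.07 for the 17 sterol enzymes, −1.60 for the 9 fatty acid enzymes and −1.41 for the 4 genes of regulation and transport, while the median of all 24304 genes was 0.01. With all arrays these medians were −1.83, −1.43 and −1.11, against 0.15 for all genes. A level lower by 1 or more was seen for 14 sterol enzymes, 8 fatty acid enzymes and 3 genes of regulation and transport, 25 of 30 in all, where 4.93% of all genes had such a difference. The 24 h value lay below all 3 control values at 9 h for 24 of the 30 genes, against 18.5% of all genes.

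After adjustment over all genes, limma called none of the 30 in this comparison. With all 8 arrays no gene of the array passed (0.0%), and without replicate 2 there were 2 such genes (0.00823%). The smallest adjusted p of limma among the 30 genes was 0.92 with 8 arrays and 0.14 with 7. At an unadjusted p under 0.05, 20 of the 30 genes were lower with 8 arrays, against 0.576% of all genes, and 26 of 30 with 7 arrays, against 5.11%. None of the 30 was higher at that threshold with 7 arrays, where 5.36% of all genes were. The single 24 h array was assumed to vary as the 9 h arrays did, and culture time cannot be told apart from the experiment and from pooling.

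The first steps of the sterol route are those of mevalonate. Hmgcs1, which makes the HMG-CoA from which mevalonate is formed, had levels of 14.25, 14.28 and 14.27 in the 3 controls at 9 h and 12.11 in the control at 24 h. The 9 h controls were nearly alike and the 24 h value lay clearly beneath them, a difference of −2.16 (SE 0.48) with 8 arrays and −2.15 (SE 0.30) with 7. Mvd, which decarboxylates mevalonate diphosphate to the isoprene unit, differed by −3.27 (SE 0.36) with 7 arrays and Pmvk, the kinase before it, by −1.35 (SE 0.32). Mvk, the first mevalonate kinase, had 9.43, 9.24 and 9.49 at 9 h and 9.65 at 24 h, a difference of 0.19 without replicate 2, and its dimmer second spot differed by −0.41. Idi1, the isomerase of the isoprene unit, had 13.02, 14.12 and 13.06 at 9 h and 12.17 at 24 h, a difference of −0.87 whose 95% interval ran from −1.89 to 0.15. Fdps, which condenses isoprene units to farnesyl diphosphate, had 10.47, 9.83 and 10.57 at 9 h and 7.69 at 24 h, so that the 24 h value was 7.08-fold lower than the mean of replicates 1 and 3.

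Most enzymes from squalene to cholesterol also had lower levels at 24 h. Fdft1, squalene synthase, differed by −1.77 (SE 0.28) and Sqle, squalene epoxidase, by −2.23 (SE 0.29) with 7 arrays. Lss, which closes the ring to lanosterol, had 8.54, 7.84 and 8.31 at 9 h and 5.97 at 24 h, all 3 controls at 9 h being above the 24 h value. Its difference was −2.26 (SE 0.54) with 8 arrays and −2.45 (SE 0.33) with 7, and its other spots differed by −1.75 and −3.01. Of the enzymes that trim lanosterol, Nsdhl, a C4 decarboxylase, had 8.81, 7.88 and 9.01 at 9 h and 5.44 at 24 h on the spot used, 11.1-fold lower without replicate 2. Its other spot differed by −0.83 only, so the size rested on the spot. Hsd17b7, a 3-ketosteroid reductase, was 7.14-fold lower, Sc5d, a desaturase, 4.97-fold and Msmo1, a C4 methyl oxidase, 4.21-fold, each without replicate 2. Dhcr7, which carries out the last reduction to cholesterol, had 10.98, 10.99 and 10.76 at 9 h and 8.82 at 24 h, a difference of −2.06 (SE 0.33). Cyp51, the lanosterol demethylase, and Tm7sf2, a sterol C14 reductase, differed by −1.80 and −1.60. Ebp, the sterol isomerase, had 7.83 and 7.62 in controls 1 and 3 and 7.99 at 24 h on the spot used. Control replicate 2 gave 4.92 for Ebp, far under the other controls, and without it the difference was 0.27 with a 95% interval of −0.51 to 1.04. The second Ebp spot, of nearly the same mean level, differed by −0.99.

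Among the regulators, Insig1, itself a target of SREBP, had 9.49, 9.31 and 9.41 in the controls at 9 h and 6.45 at 24 h. The 9 h controls lay within a narrow range, and the difference was −2.95 (SE 0.53) with 8 arrays and −2.99 (SE 0.38) with 7. Srebf1 had 8.31, 7.04 and 8.18 at 9 h and 7.32 at 24 h, and the 24 h value lay between replicate 2 and the other controls. For Srebf2 the values were 10.58, 8.03 and 9.85 at 9 h and 9.11 at 24 h, again within the range of the controls. The 7-array differences of −0.92 (SE 0.33) for Srebf1 and −1.10 (SE 0.45) for Srebf2 thus depend on leaving out replicate 2, and with 8 arrays they were −0.52 and −0.37. Stard4, a carrier of cholesterol in the cytosol, differed by −1.72 (SE 0.44).

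In the fatty acid branch, Scd1, the Δ9 desaturase that makes oleate and palmitoleate, had 10.74, 9.22 and 10.71 in the controls at 9 h and 5.42 in the control at 24 h. No other named gene of the array had a lower difference without replicate 2, at −5.30 (SE 0.54), a level 39.5-fold lower, and the second Scd1 spot differed by −5.28. With all 8 arrays the Scd1 difference was −4.80 (SE 0.85). Scd2, a second Δ9 desaturase, differed by −2.03 (SE 0.32) and Acly, which splits citrate to acetyl-CoA, by −2.27 (SE 0.39), both with 7 arrays. Fasn, the synthase of palmitate, differed by −1.92, Elovl6, the elongase of palmitate, by −1.60, and the Δ5 and Δ6 desaturases Fads1 and Fads2 by −1.55 and −1.29. Me1, a source of NADPH, differed by −1.52 (SE 0.62) without replicate 2 and by −0.57 (SE 1.28) with it. Acaca, the acetyl-CoA carboxylase, had 8.83, 7.16 and 9.21 at 9 h and 8.84 at 24 h on the spot used, a difference of −0.18 without replicate 2. This value depended on the spot, since the other 6 spots of Acaca differed by −2.44, −1.91, −1.63, −1.10, −0.51 and close to 0. All 33 further spots of the genes had a difference below 0 without replicate 2, where 49.6% of all genes did on the spot used.

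**Figure D2:**
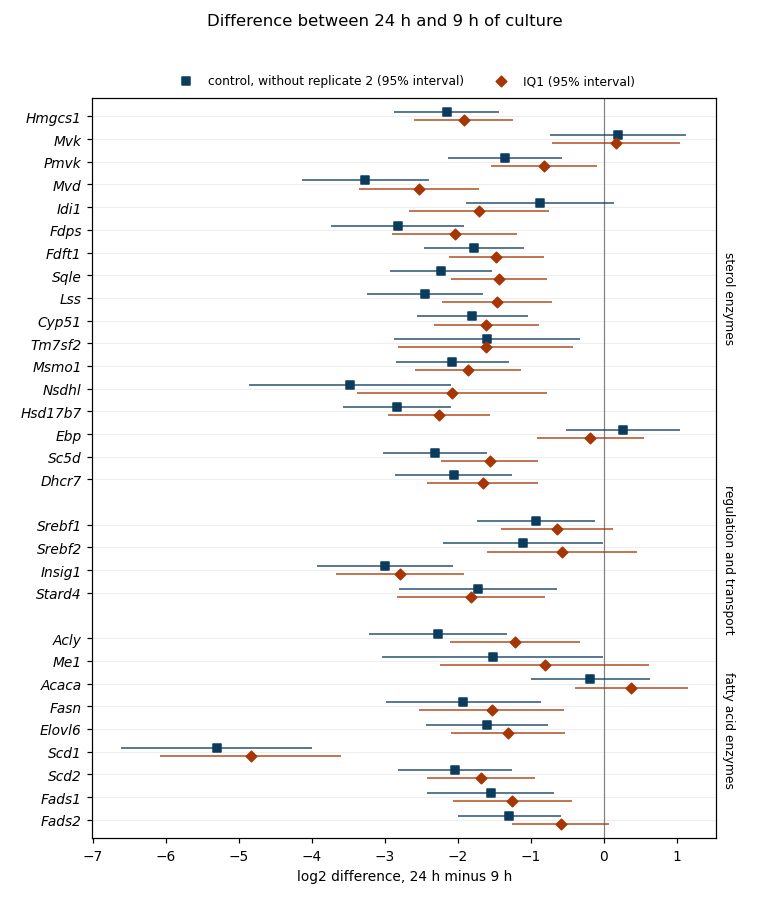
Log2 difference between 24 h and 9 h for each gene in control explants (squares, without control replicate 2) and IQ1 explants (diamonds), with 95% intervals from limma. Most genes lie left of 0 under both conditions, from −5.30 for Scd1 in controls, and Mvk, Ebp and Acaca lie near 0 on the spots used.

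The same interval was examined in the IQ1 explants, with the 1 IQ1 array at 24 h against the 3 at 9 h, a comparison added after the data had been seen. The median difference was −1.62 for the sterol enzymes, −1.25 for the fatty acid enzymes and −1.23 for regulation and transport, and −0.01 for all genes. The IQ1 value at 24 h lay below all 3 IQ1 values at 9 h for 27 of 30 genes, against 30.1% of all genes, the exceptions being Mvk, Acaca and Me1. A level lower by 1 or more was seen for 22 of 30 genes, against 4.72% of all genes. None of the 30 was called by limma after adjustment, where the share of all genes was 0.0% with 8 arrays and 0.00823% with 7. At an unadjusted p under 0.05, 16 of 30 were lower with 8 arrays (0.481% of all genes) and 23 of 30 with 7 arrays (5.79%), and none was higher with 7 arrays (6.11% of all genes). Since both fits share the arrays that set the spread, their counts are not independent.

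Scd1 had 9.59, 8.28 and 8.74 in the IQ1 explants at 9 h and 4.04 at 24 h, a difference of −4.84 (SE 0.51). Insig1 had 9.20, 8.54 and 8.53 at 9 h and 5.96 at 24 h, a difference of −2.79 (SE 0.36). Both genes were thus lower at 24 h in the presence of IQ1 as well as in its absence, by sizes whose 95% intervals overlapped. Mvd differed by −2.53 (SE 0.34) and Hsd17b7 by −2.26 (SE 0.29). Idi1, whose interval included 0 in controls, had 13.29, 13.87 and 12.98 with IQ1 at 9 h and 11.67 at 24 h, a difference of −1.71 with a 95% interval of −2.67 to −0.75.

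IQ1 was then compared with control at 9 h. Without control replicate 2, 27 of the 30 genes had lower levels with IQ1, against 48.4% of all genes, and the median difference was −0.66 for the sterol enzymes, −0.41 for the fatty acid enzymes and −0.48 for regulation and transport, beside 0.01 for all genes. With all 6 arrays 23 of 30 were lower, against 42.8% of all genes, and the medians were −0.38, −0.55 and −0.26, beside 0.16 for all genes. After adjustment limma called none of the 30 with 6 arrays, nor any other gene (0.0%), and none of the 30 with 5 arrays, where 3 of all genes passed (0.0123%). The smallest adjusted p of limma among the 30 was 0.73 with 6 arrays and 0.29 with 5. At an unadjusted p under 0.05 none of the 30 was lower with 6 arrays (0.889% of all genes), and 14 of 30 were with 5 arrays (4.14%), 9 sterol enzymes, 4 fatty acid enzymes and Stard4. None was higher with 5 arrays, where 4.24% of all genes were.

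Where replicate 2 is kept, separation of the groups can still be counted. All 3 IQ1 values lay below all 3 control values for 8 of 30 genes, Hmgcs1, Dhcr7, Insig1, Stard4, Scd2, Elovl6, Fads1 and Fads2, against 5.25% of all genes. Below control replicates 1 and 3 they lay for 19 of 30, against 13.1% of all genes. For several genes the separation rested on the spot used. With all 6 arrays the other Fads1 spots differed by 0.76 and 0.63, and the other Fads2 spots by 0.26, 0.91, 0.34 and −0.05. The second Stard4 spot differed by −0.09 and the second Hmgcs1 spot by −0.91. On the Fads1 spot used, the nearest values were 10.138 with IQ1 and 10.144 in control replicate 3. When limma weighted the arrays instead of leaving any out, Scd1 and Hsd17b7 were called lower with IQ1, by 1.98 (adjusted p = 0.0219) and 1.14 (adjusted p = 0.0453). So were 0.65% of all genes, and the other 28 genes did not pass. The weights were estimated from these same arrays, and that of replicate 2 was 0.0319. With replicate 2 left out, the adjusted p of limma was 0.314 for Scd1 and 0.287 for Hsd17b7.

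Hmgcs1 had 13.64, 13.42 and 13.74 with IQ1 against the 14.25, 14.28 and 14.27 of the controls at 9 h. The groups did not overlap, and the difference was −0.66 (SE 0.34) with 6 arrays and −0.66 (SE 0.22) with 5. Dhcr7 had 10.30, 9.81 and 10.10 with IQ1 against 10.98, 10.99 and 10.76, again with no overlap, a difference of −0.84 (SE 0.35) with 6 arrays. Stard4 had 7.86, 6.95 and 7.12 with IQ1 and 8.40, 8.19 and 8.10 in controls, the IQ1 values being lower and more widely spread. Insig1 was at 9.20, 8.54 and 8.53 against 9.49, 9.31 and 9.41, a difference of −0.65 (SE 0.37) with 6 arrays.

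Hsd17b7 had 9.38, 9.10 and 9.35 with IQ1 and 10.52, 9.33 and 10.28 in controls, so that control replicate 2 lay among the IQ1 values and the other controls above them. Its difference was −0.77 (SE 0.44) with 6 arrays and −1.12 (SE 0.23) with 5, the smallest p among the 30 genes in the latter fit. Sc5d had 9.71, 9.41 and 9.55 with IQ1 and 10.45, 8.42 and 10.43 in controls. Here replicate 2 lay below every IQ1 array, and the difference was −0.21 (SE 0.64) with 6 arrays and −0.88 (SE 0.22) with 5. Srebf1 had 8.24, 7.70 and 7.99 with IQ1 against 8.31, 7.04 and 8.18, and Srebf2 had 10.34, 9.63 and 10.04 against 10.58, 8.03 and 9.85. Both regulators overlapped between the groups, and their differences changed sign with replicate 2, from 0.14 and 0.52 with it to −0.27 and −0.21 without it.

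In the fatty acid branch Scd1 had 9.59, 8.28 and 8.74 with IQ1 and 10.74, 9.22 and 10.71 in controls at 9 h. IQ1 replicate 1 exceeded control replicate 2 and no other control, and the difference was −1.35 (SE 0.60) with 6 arrays and −1.85 (SE 0.40) with 5. Elovl6 had 7.05, 6.50 and 6.95 with IQ1 against 8.01, 7.29 and 7.88, with no overlap, a difference of −0.89 (SE 0.40) with 6 arrays and −1.11 (SE 0.26) with 5. Acly had 9.81, 9.09 and 9.61 with IQ1 against 10.80, 9.29 and 10.52, where replicate 2 again lay among the IQ1 arrays. The highest differences without replicate 2 were those of Idi1 (0.34), Ebp (0.19) and Me1 (0.18), whose 95% intervals all included 0. Of the 33 further spots, 32 had the sign of the spot used without replicate 2 and 16 had it with all 6 arrays.

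At 24 h there was 1 array per condition, and the values are first given as differences. The level was lower with IQ1 for 19 of the 30 genes, against 48.6% of all genes, and the median difference was −0.26 for the sterol enzymes, −0.04 for the fatty acid enzymes and −0.24 for regulation and transport, beside 0.02 for all genes. A difference of 1 or more was reached by Scd1 and Stard4 only, both lower (4.97% of all genes), and by no gene on the higher side (5.64%). Scd1 was at 4.04 with IQ1 and 5.42 in the control, a difference of −1.38, although the IQ1 value lay under the lower quartile of the array and its second spot differed by −0.60. Stard4 was at 5.49 and 6.53, a difference of −1.04, and Elovl6 at 5.52 and 6.35, a difference of −0.83. The second Stard4 spot differed by −0.29. These genes also had lower values with IQ1 at 9 h.

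On the higher side at 24 h were Me1, at 8.77 with IQ1 and 7.88 in the control, Lss, at 6.85 and 5.97, and Nsdhl, at 6.06 and 5.44. Lss and Nsdhl depended on the spot, since those used differed by 0.88 and 0.62 while the other spots of Lss each differed by −0.60 and the other of Nsdhl by −1.36. The second Me1 spot differed by 0.83. Of all 33 further spots, 18 had the sign of the spot used at 24 h. A test of IQ1 against control at 24 h was added after the data had been seen, from the fit of all 4 groups, in which each single 24 h array is assumed to vary as the 9 h arrays did. After adjustment limma called none of the 30 genes, nor any other gene, with 8 or 7 arrays (0.0% both). None of the 30 reached an unadjusted p under 0.05, where 0.358% of all genes were lower and 0.152% higher with 8 arrays and 3.25% and 2.88% with 7. The 95% interval with 7 arrays was −2.90 to 0.13 for Scd1, −2.29 to 0.21 for Stard4 and −0.04 to 1.80 for Lss. The difference between the IQ1 effects at 24 h and 9 h was fitted as an interaction. With 7 arrays it was above 0 for most of the 30 genes, up to 1.39 for Nsdhl, 1.05 for Acly and 0.99 for Lss. It was below 0 for Idi1 (−0.84), Ebp (−0.45), Stard4 (−0.10), Mvk (−0.03) and Tm7sf2 (−0.01). None of the 30 genes reached an unadjusted p under 0.05 in limma, where 0.313% of all genes did with 8 arrays and 4.07% with 7, and the 95% interval for Hmgcs1 with 7 arrays ran from −0.75 to 1.23.

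**Figure D3:**
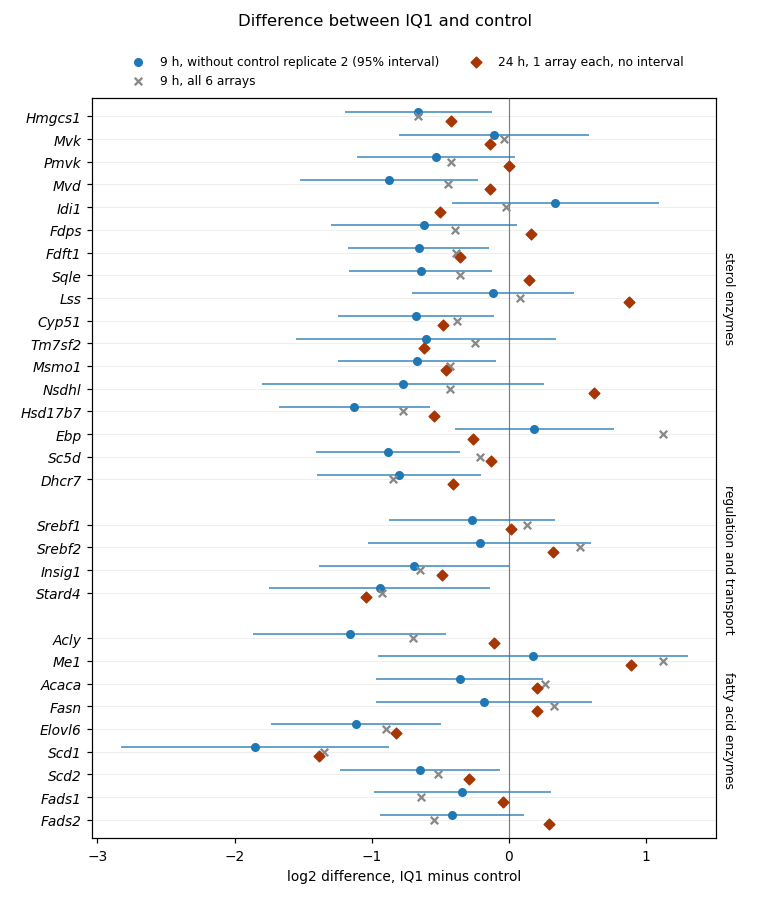
Log2 difference between IQ1 and control for each gene at 9 h (circles without control replicate 2, with 95% intervals from limma; crosses with all 6 arrays) and at 24 h (diamonds, 1 array per condition, no interval). At 9 h most circles lie left of 0, from −1.85 for Scd1 to 0.34 for Idi1, and at 24 h the values scatter around 0 between −1.38 and 0.89.

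The sterol and fatty acid branches were set side by side on every array, each gene taken relative to its own median over the 8 arrays. For the sterol enzymes the median relative level was 0.68, −0.11 and 0.73 in the controls at 9 h, 0.22, −0.07 and 0.05 with IQ1 at 9 h, −1.36 in the control at 24 h and −1.49 with IQ1 at 24 h. For the fatty acid enzymes it was 0.52, 0.10 and 0.48, then 0.16, −0.36 and −0.16, and at 24 h −1.15 and −1.26. In both branches the 24 h arrays lay lowest, controls 1 and 3 highest, and the IQ1 arrays at 9 h between them. Control replicate 2 lay just below the IQ1 arrays at 9 h for the sterol enzymes and within their range for the fatty acid enzymes. The median of all genes was −0.38 on control replicate 2 and near 0 on every other array. No test was made between the branches, and the order of their medians at 9 h depended on replicate 2, the fatty acid enzymes being lower in median with 6 arrays and the sterol enzymes with 5. It depended on the spots too, since with the mean of each gene's spots and all 6 arrays the medians were 0.17 for the fatty acid and −0.27 for the sterol enzymes.

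**Figure D4:**
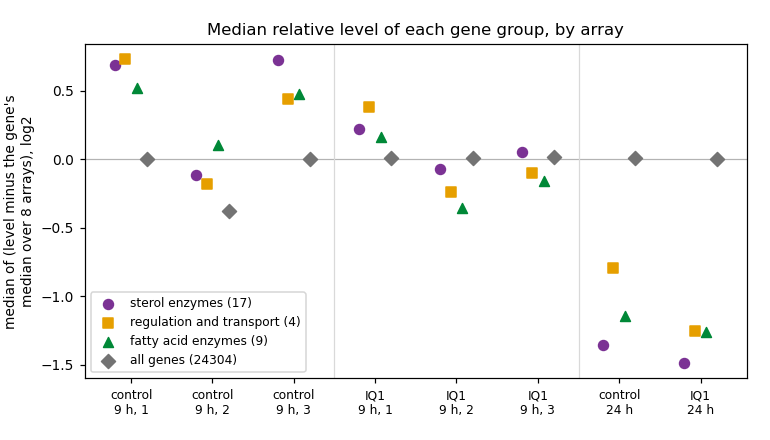
Median over the genes of each group of the level relative to the gene's own median over the 8 arrays, in log2 units, for the 8 arrays in turn. Sterol and fatty acid enzymes lie between −1.49 and −1.15 on the 24 h arrays and between −0.36 and 0.73 at 9 h, while the median of all genes is −0.38 on control replicate 2 and near 0 on the other arrays.

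Other genes of lipid metabolism were taken from lists by pathway. In controls, 24 h against 9 h without replicate 2, the counts at an unadjusted p under 0.05 in limma stand against 5.11% of all genes lower and 5.36% higher. Of 8 further sterol and isoprenoid enzymes 1 was lower, Nus1, a subunit of the dolichol-forming enzyme, by −1.02 (adjusted p = 0.42), with Lbr, a sterol C14 reductase of the nuclear envelope, next at −0.44. Of 13 further genes of sterol sensing and uptake 3 were lower, with a median of −0.40, led by Scarb1, a receptor of high-density lipoprotein, at −1.50 (adjusted p = 0.31), and Scap, the SREBP escort, at −1.04 (adjusted p = 0.35). Control replicate 2 had higher values of both than any other array. Of 25 further genes of fatty acid synthesis and activation 5 were lower and 1 higher, with a median of −0.63. The smallest p was that of Slc25a1, the mitochondrial citrate carrier, at −1.81 (adjusted p = 0.26), followed by Fads3, a desaturase relative, at −1.27 (adjusted p = 0.32). Glycerolipid synthesis had 3 of 17 genes lower and a median of −0.19, led by Pcyt1b, of phosphatidylcholine synthesis, at −1.31, and Lpin1, a phosphatidate phosphatase, at −1.26. Sterol efflux and LXR targets had none of 10 lower and 1 higher, Nr1h3, the receptor LXRα, with Lpcat3, an acyltransferase, at −0.69. Fatty acid oxidation had none of 18 in either direction and a median of 0.03, with Slc25a20, the carnitine carrier, at 0.99 and Hadha, of the trifunctional protein, at −0.58. No test was made between lists, and with all 8 arrays the medians of these lists lay between 0.06 and 0.60.

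With IQ1 at 9 h, without replicate 2, the medians of these lists lay between −0.11 for further sterol and isoprenoid enzymes and 0.20 for fatty acid oxidation. With all 6 arrays the medians lay between 0.36 for further fatty acid synthesis and activation and 0.96 for fatty acid oxidation, beside 0.16 for all genes. The differences that follow are without replicate 2. Nus1 and Lbr differed by −0.57 and −0.33, Soat1, which esterifies cholesterol, by −0.76 and Scarb1 by −0.52. Among efflux and LXR targets, Ch25h, which makes 25-hydroxycholesterol, differed by −1.39 and Apoe, a lipid carrier, by 0.72. Acsl4, which activates arachidonate, had 10.69, 10.53 and 10.59 with IQ1 against 11.60, 10.15 and 11.81 in controls, a difference of −1.10 (adjusted p = 0.27). The IQ1 values lay between control replicate 2 and the other controls. Acsl5, a related enzyme, differed by −0.97, and the acyltransferases Lpcat1 and Agpat2 by −0.66 and −0.55. In fatty acid oxidation 3 of 18 genes were higher and none lower at an unadjusted p of limma under 0.05, against 4.24% and 4.14% of all genes. Among the 3 were the coactivator Ppargc1a, by 0.95 (adjusted p = 0.40), and Acadm, a dehydrogenase of medium chains, by 0.73 (adjusted p = 0.46). With all 6 arrays 1 of 18 was higher at that threshold, beside 274 of all 24304 genes.

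Markers of cell types moved in the same comparisons. All 8 endothelial markers were lower with IQ1 at 9 h, with a median of −2.27 without replicate 2, and all 8 at 24 h, with a median of −2.47. The log2 of their summed intensity was 11.05 to 11.50 in the controls at 9 h and 8.66 to 9.17 with IQ1, then 11.41 and 8.68 at 24 h. In controls from 9 h to 24 h their median difference was −0.04 without replicate 2, with 4 of 8 lower. With all 8 arrays it was 0.36, with 1 of 8 lower. Mesothelial markers had a median of 0.91 with IQ1 at 9 h without replicate 2, 2.17 with all 6 arrays, and 1.50 at 24 h. Their sums at 9 h were 9.88 on control replicate 2, 11.91 and 11.93 on the other controls, and 12.44 to 13.69 with IQ1. At 24 h they were 11.89 and 13.18. Macrophage markers had a median of 0.55 with IQ1 at 9 h without replicate 2, 1.03 with all 6 arrays, and 0.59 at 24 h. In the control comparison of 24 h with 9 h all 8 mesenchymal markers were lower without replicate 2, by a median of −0.66, beside 49.6% of all genes. With all 8 arrays 6 of 8 were lower, with a median of −0.23, beside 43.9% of all genes. Their log2 summed intensity was 14.42 to 14.78 at 9 h and 14.17 at 24 h. All 8 macrophage markers were higher without replicate 2, by a median of 0.63. With all 8 arrays 1 of them was lower and the median was 0.92. Their sums were 13.61 to 13.88 at 9 h and 14.05 at 24 h. Epithelial markers had a median of −0.23 without replicate 2, with 5 of 8 lower, and sums of 13.24 to 13.39 and 13.20. All 4 erythroid markers were lower without replicate 2, by a median of −0.57, led by Slc4a1, the red cell anion exchanger, at −2.01. With all 8 arrays 2 of 4 were lower. Their sums were 13.79 to 14.71 at 9 h and 14.42 at 24 h. Of the 8 adipocyte and liver markers 4 were lower and 4 higher without replicate 2, with a median of 0.07. Their sums were 10.27 to 12.69 at 9 h, the highest on control replicate 2, and 10.76 at 24 h. In that list Apoa2, an apolipoprotein of liver, differed by 0.97, whereas Fabp4, a fatty acid binding protein of adipocytes and endothelium, had 6.68, 7.42 and 5.93 at 9 h and 3.81 at 24 h, a difference of −2.49 (SE 0.38), beside that of Scd1. The part of these cell types in the differences of the synthesis genes was not tested.

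Because most sterol genes had lower levels at 24 h than at 9 h, promoters of the set were searched for 4 short sequences. Each window ran from 250 bases before to 50 bases after an annotated start (RefSeq, GRCm38.p6), and 23 of the 30 genes matched the table. A gene with several starts was counted when any of its windows held the sequence. CCAAT, the box of the factor NF-Y, was found on either strand in all 14 sterol enzymes with a window, in 3 of 6 fatty acid enzymes and in 3 of 3 regulators, beside 41.1% of the 27025 genes in the table. GGGCGG, the box of Sp1, was found in 13 of 14, 3 of 6 and 3 of 3, beside 38.2% of all genes. CACGTG, an E-box, was found in Dhcr7, Hsd17b7, Sc5d and Insig1, 4 of 23, beside 8.09% of all genes. TCACNCCAC, a core of the sterol regulatory element, was found in Hmgcs1 alone, 1 of 23, beside 1.44% of all genes. Only this exact pattern was searched in these windows, so a promoter without a match may still hold a sterol element. NF-Y and Sp1 are known partners of SREBP at sterol-regulated promoters, and a match of letters is a description and no proof of binding. The 250 bases before the start are shown for the genes of smallest p at 9 h without replicate 2 that have a window (Scd1 has none). Hmgcs1 is shown as well, chosen for its match to TCACNCCAC, and matches to the 4 sequences are in capitals. Hsd17b7 (chr1:169969206-169969455, minus strand) and Sc5d (chr9:42264301-42264550, minus strand) carry 3 and 1 NF-Y boxes there, and Hmgcs1 (chr13:119690101-119690350, plus strand) carries 3. For Dhcr7, which has 3 annotated starts, the window with NF-Y boxes is shown (chr7:143829964-143830213, plus strand). The E-box of Dhcr7 lies in the window of another start, which holds no NF-Y box. In the fatty acid branch, Acly (chr11:100528001-100528250, minus strand) carries 4 Sp1 boxes and Elovl6 (chr3:129532136-129532385, plus strand) none of the 4 sequences.
Hsd17b7: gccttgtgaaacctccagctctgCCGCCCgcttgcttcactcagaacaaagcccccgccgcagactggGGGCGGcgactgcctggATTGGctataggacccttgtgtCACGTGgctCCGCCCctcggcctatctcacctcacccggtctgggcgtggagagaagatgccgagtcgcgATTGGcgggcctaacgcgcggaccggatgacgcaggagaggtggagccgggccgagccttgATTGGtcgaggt
Sc5d: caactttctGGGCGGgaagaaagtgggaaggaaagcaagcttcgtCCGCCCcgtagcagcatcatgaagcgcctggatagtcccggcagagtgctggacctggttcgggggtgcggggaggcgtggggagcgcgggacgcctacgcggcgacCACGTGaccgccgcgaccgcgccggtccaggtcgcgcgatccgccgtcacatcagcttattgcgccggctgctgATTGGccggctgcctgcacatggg
Dhcr7: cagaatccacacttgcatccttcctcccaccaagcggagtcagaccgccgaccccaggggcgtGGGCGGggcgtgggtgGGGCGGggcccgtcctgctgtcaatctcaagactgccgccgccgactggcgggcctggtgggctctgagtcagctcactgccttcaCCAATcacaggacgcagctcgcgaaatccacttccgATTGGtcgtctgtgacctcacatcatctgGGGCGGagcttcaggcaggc
Hmgcs1: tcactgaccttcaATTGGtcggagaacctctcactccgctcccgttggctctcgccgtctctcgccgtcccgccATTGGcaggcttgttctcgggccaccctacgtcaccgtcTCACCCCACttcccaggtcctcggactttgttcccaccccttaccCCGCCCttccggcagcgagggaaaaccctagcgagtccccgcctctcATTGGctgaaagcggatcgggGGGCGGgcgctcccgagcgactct
Acly: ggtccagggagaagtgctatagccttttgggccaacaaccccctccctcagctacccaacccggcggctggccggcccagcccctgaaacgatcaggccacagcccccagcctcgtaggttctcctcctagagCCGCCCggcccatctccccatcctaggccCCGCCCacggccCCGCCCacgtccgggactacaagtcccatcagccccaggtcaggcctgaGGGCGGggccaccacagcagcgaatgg
Elovl6: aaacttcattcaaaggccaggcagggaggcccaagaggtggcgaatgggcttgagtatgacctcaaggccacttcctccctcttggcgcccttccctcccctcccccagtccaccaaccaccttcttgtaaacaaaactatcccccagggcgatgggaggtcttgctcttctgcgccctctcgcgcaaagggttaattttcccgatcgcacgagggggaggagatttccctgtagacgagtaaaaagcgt
The genes shown other than Hmgcs1 were chosen by their values at 9 h, and no relation between the boxes and the differences was tested.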

How the data were processed

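The authors deposited one table of log2 values, 1 per spot and array, from 1-colour Agilent mouse arrays. Per the methods, RNA was amplified as cDNA before labelling, spots were background corrected by NormExp, and arrays were quantile-normalised with limma. This makes every value relative to the other genes of its array. Amplification of little RNA can add error to dim spots, and spot flags were not used here. Cy5 is given as dye in the labels and Cy3 in the methods. Of 62976 spots, 43941 carried a gene name, 33704 resolved through their accession, 9767 by symbol and 463 by synonym in a RefSeq table, and 8 with a missing value were left out. The brightest spot of a gene was kept, without a filter on dim genes, which gave 24304 genes. Linear models were fitted by limma (version 3.58.1, under R 4.3.3) with moderated two-sided tests and Benjamini-Hochberg adjustment over all genes and a threshold of 0.05; time differences came from a fit of 4 group means. IQ1 against control at 24 h was planned without a test, and its contrast from this fit was added after seeing the data, as was that of IQ1 at 24 h against 9 h. The scripts were tested on simulated data, where the fit with 1 array at 24 h called none of the changed genes and the 9 h fit called part of them. The gene set, branches, lists and the choice to set fits without control replicate 2 beside the rest were made with earlier results of these data known. Values in every array are given for the 6 genes of smallest p at 9 h in each fit and in controls at 24 h against 9 h, the 3 highest and 3 lowest at 24 h, and Srebf1, Srebf2 and Insig1, with further genes chosen after their values were seen; the 2 genes of smallest p stand for each pathway list. Alternatives were leaving out each array, array weights, a replicate block, a filter on dim genes, an intensity trend with robust prior, centring, control arrays only, and the mean of a gene's spots. Sequences came from RefSeq.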

Additional observations from a re-analysis of the deposited data

How the results depend on the processing

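At 9 h, 3 genes of the array passed when control replicate 2 was left out, 0 to 3 over all arrays left out in turn, and 233 when arrays were weighted, 2 of them among the 30 synthesis genes, Scd1 (−1.98, adjusted p = 0.0219) and Hsd17b7 (−1.14, adjusted p = 0.0453). Every other setting gave 0, with a smallest adjusted p of limma between 0.387 and 0.889, and the count of the 30 genes stayed at 0 in all settings but array weights. With the replicate number as a replicate block no gene passed (smallest adjusted p = 0.757). Deviations of arrays with the same number correlated at −0.0036 to 0.015. Control deviations were taken from a mean that includes replicate 2, so these values could not decide whether the numbers pair the arrays. The main fits treated the arrays as unpaired. For controls at 24 h against 9 h, leaving out control arrays gave 0 to 2 genes, the 2 without replicate 2, and the other settings gave 0. For IQ1 against control at 24 h no gene passed with 8 or 7 arrays. Signs reversed at 9 h for Sc5d, from −0.21 to 0.14 and 0.12 without control replicates 1 and 3 and to 0.18 with the mean of its spots (−0.88 to 0.14 over arrays left out). They reversed for Srebf1, from 0.14 to −0.27 without replicate 2 and −0.30 with array weights (−0.27 to 0.37 over arrays left out), and for Srebf2, from 0.52 to −0.21 and −0.34 (−0.21 to 1.06). Between 24 h and 9 h in controls, Srebf2 turned from −0.37 to 0.17 without control replicate 1 (−1.10 to 0.17 over arrays left out). The median of the fatty acid enzymes at 9 h moved from −0.55 to 0.17 with the mean of each gene's spots, and at 24 h from −0.04 to 0.01. The causes were not tested. With 3 arrays a group at 9 h and 1 at 24 h, the number of arrays limits the precision, and the signal over background of a spot is unknown.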
